A study of Arabidopsis thaliana and Ginkgo biloba and Brassica rapa with 13 samples.

Results

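Chloroplast-16S rRNA is the small subunit rRNA of the chloroplast ribosome, and C916 is the single 5-methylcytosine (m5C) position listed in it. The position was chosen by its row in the deposited table of rRNA methylation percentages, 1 of 16 listed sites. Its level was not a criterion, although earlier results of these data were known. The bases that the *B. rapa* reference lacks near the site were named for description when it was chosen. The site was read together with the 6 chloroplast 16S reference sequences. C916 counts bases from 1 at the 5′ end of the 1491 base *A. thaliana* reference. In RNA bisulfite sequencing (RBS-seq), cytosines without a methyl group are deaminated and appear as thymine in the reads while m5C stays a cytosine. A level is the percentage of reads that kept a cytosine among reads with a cytosine or thymine.

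Total RNA of 6 wild type species was used. *A. thaliana* was sampled as seedlings 10 days after germination, in 3 bisulfite libraries for which only the authors' mean was used here. *Brassica rapa*, *Triticum durum*, *Caulerpa taxifolia*, *Nannochloropsis oculata* and *Ginkgo biloba* had 1 bisulfite library each, from leaf, flag leaf, fronds, cells and leaf as labelled, although the methods of the study name shoot apexes for *B. rapa* and *G. biloba*. Species, tissue and library therefore cannot be told apart. No replicate values or read depths accompany the percentages, so no error or interval could be attached to any level and no difference between species was tested.

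Chloroplast ribosomes are of bacterial type, and their 16S rRNA keeps the overall fold of the bacterial molecule. In bacteria such as *Escherichia coli*, the loop of helix 31 of 16S rRNA lies next to the site that holds the peptidyl-tRNA and carries a neighbouring pair of modified bases. These are an N2-methylguanosine made by RsmD and, directly after it, an m5C made by RsmB (also called Fmu), an enzyme of the same superfamily as the eukaryotic NSUN and TRM4 proteins. As background from textbook knowledge, C916 is taken here as the chloroplast counterpart of that m5C, and no bacterial sequence was aligned.

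The letters around C916 are shown first, because *C. taxifolia* differs from the rest at the base directly before the site and *B. rapa* lacks bases that end 5 bases before it. Each line gives 20 bases on either side of the site, in the species' own chloroplast 16S reference, with C916 in capitals. *T. durum* had the same 41 bases as *A. thaliana*. No letters are printed for *N. oculata*.
A. thaliana: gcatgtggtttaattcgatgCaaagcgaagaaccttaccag
B. rapa: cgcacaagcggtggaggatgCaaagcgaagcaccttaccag
C. taxifolia: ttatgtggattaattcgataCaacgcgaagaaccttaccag
G. biloba: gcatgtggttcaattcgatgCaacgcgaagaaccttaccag

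In the TAIR10.1 assembly C916 lies at position 101927 of the chloroplast genome, on the plus strand, inside the annotated 16S ribosomal RNA gene ArthCr086 (101012 to 102502). The inverted repeat holds a second copy of the gene, ArthCr088 (136147 to 137637), which places C916 at 136722 on the minus strand. Both annotated genes equalled the deposited *A. thaliana* reference over its whole length, so reads from either copy carry the same letters. The submitters name TAIR10, and these coordinates are those of TAIR10.1 alone.

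C916 was listed as methylated in all 6 species, at levels that fell into a low pair and a high group of 4. The low pair was *B. rapa* with 31% and the green alga *C. taxifolia* with 43%. The others were *T. durum* with 76%, *A. thaliana* with 81%, *G. biloba* with 84% and *N. oculata* with 87%. The median over species was 78.5%. In this order the steps from each species to the next were 12, 33, 5, 3 and 3 percentage points, and without a replicate spread none of the neighbours can be said to differ. The range was 56 points over all species and 11 points over the 4 species other than *B. rapa* and *C. taxifolia*, a grouping made after the levels were seen. The SD over species was 23.8 points for C916, against 1.97 to 9.52 points for the other 5 sites that reached 20% in every species. Mitochondrial C960 is not among those sites, because the entry of *N. oculata* there is the letter A and not a percentage. C960 also spread widely over the species with a percentage, from 28% in *A. thaliana* to 78% in *G. biloba*.

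The low levels of *B. rapa* and *C. taxifolia* were compared with other sites in the same libraries, to see whether their chloroplast rRNA was low throughout. C1940 and C1977 are the m5C positions that all species share in chloroplast 23S rRNA, the large subunit partner of the 16S. In *B. rapa* C916 had 31%, against 83% at C1940 and 90% at C1977. In *C. taxifolia* C916 had 43%, against 73% at C1940 and 90% at C1977. Both libraries thus had 23S sites at 73% or more, and the difference of C916 from the mean of the 23S pair was -55.5 points in *B. rapa* and -38.5 points in *C. taxifolia*.

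In the remaining species C916 lay nearer to the mean of the 23S pair, from -13.5 points in *T. durum* to 5 points in *A. thaliana*. In *T. durum* it had 76%, against 88% at C1940 and 91% at C1977. In *G. biloba* it had 84%, against 85% and 90% at the same sites. In *A. thaliana* C916 had 81%, against 70% at C1940 and 82% at C1977, so that it lay 11 points above the one and 1 point below the other. *N. oculata* had the same order, with 87% at C916, against 81% and 88%. C916 was below C1977 in all 6 species and below both 23S sites in 4 of them.

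**Figure D1:**
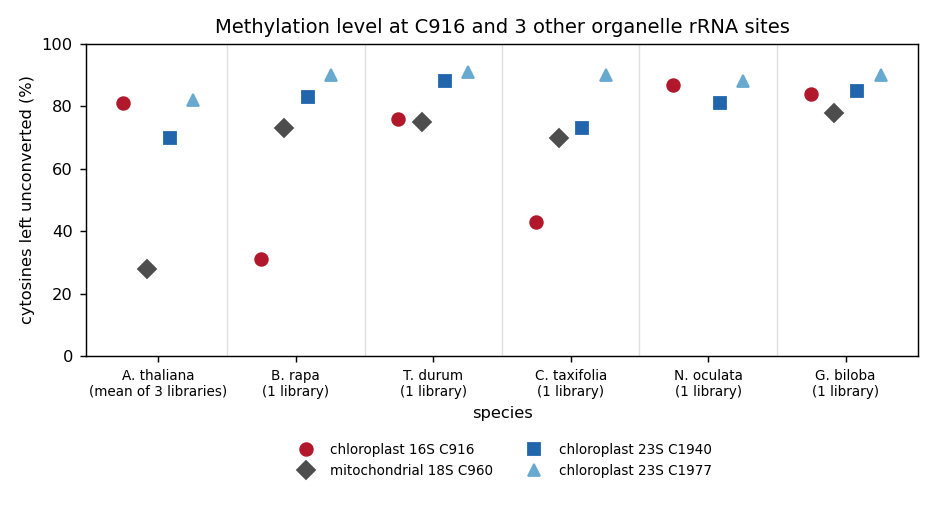
Percentage of cytosines left unconverted (y axis) in each species (x axis) at chloroplast 16S C916, its mitochondrial counterpart C960 and the chloroplast 23S sites C1940 and C1977; each point is 1 library, save for the authors' mean over 3 libraries in *A. thaliana*, with no error available. C916 is at 31% in *B. rapa* and 43% in *C. taxifolia*, where both 23S sites are at 73% or more, and *N. oculata* has no C960 value.

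Among the 6 sites at 20% or more in every species, C916 ranked lowest in *C. taxifolia*, *B. rapa* and *T. durum*. Counted from the lowest, its rank was 4 in *A. thaliana* and 5 in *N. oculata*, and in *G. biloba* it shared the middle ranks with another site. Its difference from the median of the other 5 sites was -52 points in *B. rapa*, -43 in *C. taxifolia*, -15 in *T. durum*, 0 in *G. biloba*, 6 in *N. oculata* and 9 in *A. thaliana*.

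Of the other shared sites, the one most like C916 in its order over the species was C2860 of nuclear 25S rRNA, with a Spearman correlation of 0.40 and a Pearson correlation of 0.08 over the 6 species. Next was C1940 with -0.03 and 0.12. The remaining coefficients were negative, and the furthest from 0 was that of C1586 in mitochondrial 26S rRNA, with -0.72 by either measure. The sites of a species come from the same libraries, and C2860 spans only 4 points, so these coefficients describe 6 points and nothing more.

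The 3 species with a database 16S reference had 81% (*A. thaliana*), 87% (*N. oculata*) and 84% (*G. biloba*). The other 3 references were consensus sequences built from RNA-seq reads with another sequence as guide. The deposited reference table names a different guide for each of them and the methods of the study name *A. thaliana* rRNA, a difference that was not settled. Their species had 31% (*B. rapa*), 76% (*T. durum*) and 43% (*C. taxifolia*). These groups of 3 did not overlap in level at C916. They did not overlap at mitochondrial C1586 either, in the opposite order. There the species with a database 16S reference had 72% to 83%, and those with a guided 16S reference had 92% to 93%. The groups were set by the 16S reference alone. The source of the references that hold C1586, C1977 and C1940 is not given here. At C1977 the groups met at 90%, and at C1940 they overlapped. Nuclear C2268 and C2860, the remaining shared sites, were not set out by these groups. How often shared sites separate in this way is therefore not given. How the 16S reference was obtained changed together with the species, and its part in the level was not tested.

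A cytosine stood at the position of C916 in all 6 references. Its own position was 901 in *B. rapa*, 917 in *T. durum*, 909 in *C. taxifolia*, 939 in *N. oculata* and the same as in *A. thaliana* in *G. biloba*. It was 1 of 360 cytosines in *A. thaliana*, and of 316 in *N. oculata* to 366 in *G. biloba*. Each reference was listed with 1 site, which is at most 0.317% of its cytosines. The multiple alignment kept a cytosine in all species at 235 of the 360 *A. thaliana* cytosines, or 65.3%, and 5 of these lay within 20 bases of C916 without being listed as sites.

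Differences near the site are given as the *A. thaliana* base, the position in its 16S rRNA and the base of the other species. *C. taxifolia* was the single species with a change directly before the site, G915A, at the base taken as the counterpart of the methylated guanosine of bacteria. It also had A919C, T904A, C897T and G896T within 20 bases. *N. oculata* had A919C and C897G there, and *G. biloba* had A919C and T906C. *T. durum* had no difference over 30 bases on each side. The references of *B. rapa*, *T. durum* and *C. taxifolia* are guided consensus sequences. If *A. thaliana* rRNA was the guide, their likeness to it, here and below, may in part come from the guide, which was not tested. Of the 60 flanking positions, 50 held the same base in all references other than that of *B. rapa*, and 37 did so with it.

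The *B. rapa* reference lacked 15 consecutive bases of *A. thaliana*, positions 897 to 911, with 4 bases left between the absent run and C916. In *A. thaliana* these bases read as follows.
absent bases: catgtggtttaattc

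No other base of the *A. thaliana* 16S was absent from the *B. rapa* reference, and the absent run makes up the whole difference between the listed lengths of 1476 for *B. rapa* and 1491 for *A. thaliana*. With the run put back, the *B. rapa* reference differed from *A. thaliana* at 1 base of 1491, A926C, which lies 10 bases after C916. The other species held between 13 and 15 of the 15 absent bases with the *A. thaliana* letter, and no other reference lacked a base within 30 bases of C916. The same 15 letters occurred once in the mitochondrial 18S reference of *B. rapa* and in none of its remaining references. Counted without the gap from the 5′ side, *A. thaliana* position 901, a T, falls where *B. rapa* has the C of C916. Whether the absent bases bear on the 31% of *B. rapa* was not tested.

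The species with 76% to 87% all held the same 7 bases around C916, from 5 before it to 2 after it. *C. taxifolia* with 43% differed at the base before the site, and *B. rapa* with 31% lacked the outermost of them. This window was chosen after the levels were seen, so its agreement with the levels was set by its edges and is no test. The next base, position 919, was C in *C. taxifolia* with 43%, but also in *N. oculata* with 87% and *G. biloba* with 84%. All of this rests on 6 references.

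**Figure D2:**
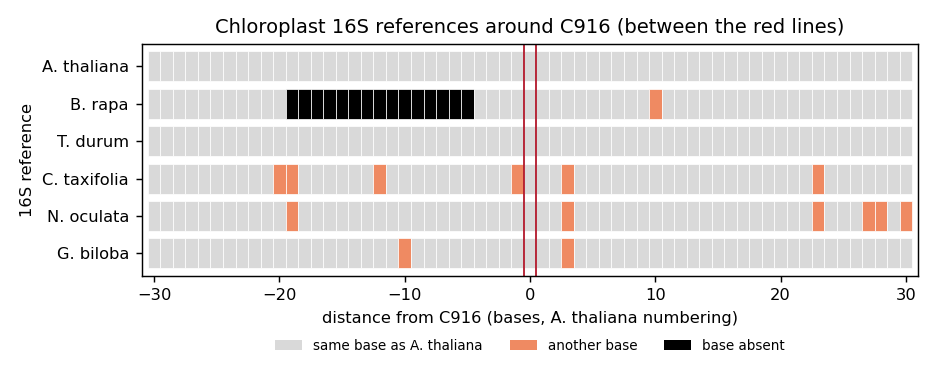
Each row is the chloroplast 16S reference of a species and each cell a base, at its distance from C916 in bases (x axis, *A. thaliana* numbering), drawn as the same base as in *A. thaliana*, another base or an absent base. *B. rapa* lacks 15 bases that end 5 bases before the site, *C. taxifolia* is the single species with another base directly before it, and *T. durum* has no difference.

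Identity of the flanks to *A. thaliana* was then set against that of the other 16S cytosines. Over 10 bases on each side it was 65% in *B. rapa*, 100% in *T. durum*, 90% in *C. taxifolia*, 95% in *N. oculata* and 90% in *G. biloba*. The mean of 88% was below the median of 94% over 353 cytosines with full flanks, and 22.7% of these were lower. Without *B. rapa* the mean was 93.8% against a median of 92.5%, and 52.1% were lower. The site of C916 thus stood near the middle of its rRNA in 4 species, and below its median with *B. rapa* included. By species, *C. taxifolia* and *N. oculata* were more alike to *A. thaliana* around C916 than at their median cytosine, which was 85% in both, and *G. biloba* was less alike than at its median of 100%.

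**Figure D3:**
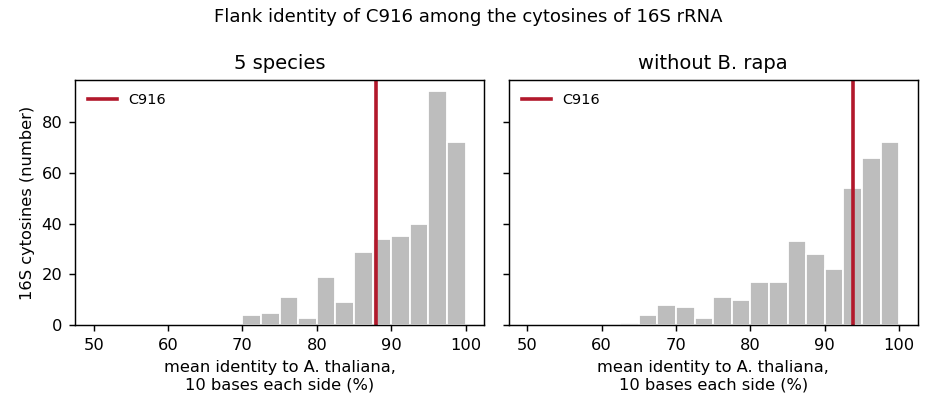
Number of 16S cytosines (y axis) by mean identity to *A. thaliana* over 10 bases on each side (x axis, %), over 5 species and without *B. rapa*, with C916 as a red line. C916 is at 88%, below the median of 94%, over 5 species and at 93.8%, above the median of 92.5%, without *B. rapa*.

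Helix 31 of bacteria is a short stem with the modified bases in its loop, so the predicted fold around C916 was examined. In a window of 15 bases on each side, C916 lay in a loop of 8 bases closed by 4 base pairs in *A. thaliana*, *T. durum*, *C. taxifolia*, *N. oculata* and *G. biloba*. Its pairing probability there was 0.005 in *A. thaliana* and *T. durum*, 0.001 in *C. taxifolia* and *N. oculata* and 0.000 in *G. biloba*. The *B. rapa* reference did not form this hairpin, since 3 of the 4 bases of the 5′ strand of the stem are among the absent bases, and C916 was paired with a probability of 0.956. With the absent bases put back, the *B. rapa* sequence formed the same loop in this window and the probability was 0.026, although it was 0.770 with 50 bases on each side and above 0.5 in 6 of the 7 settings examined. This short window was chosen after longer ones had been examined.

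Longer windows gave other folds. With 50 bases on each side, the pairing probability of C916 was 0.999 in *B. rapa*, 0.912 in *N. oculata*, 0.703 in *A. thaliana* and in *T. durum*, 0.062 in *G. biloba* and 0.045 in *C. taxifolia*. *B. rapa* was above 0.5 in all 7 settings of window and temperature, between 0.525 and 0.999. With the absent bases put back it was above 0.5 in 6 of them, between 0.026 and 0.962, and the setting below 0.5 was the shortest window. In all 7 settings, *C. taxifolia* (0.001 to 0.129) and *G. biloba* (0.000 to 0.430) were below 0.5. *A. thaliana* and *T. durum* were above 0.5 in 3 settings and *N. oculata* in 5. With 50 bases on each side, the low levels of 31% and 43% stood beside the highest and the lowest predicted pairing of the deposited references. The 84% of *G. biloba* stood beside 0.062. With the absent bases put back, *B. rapa* had 0.770, below the 0.912 of *N. oculata*, whose level was 87%. With 25 bases *G. biloba* had 0.430 and *C. taxifolia* 0.025, and with 15 bases *C. taxifolia* was not the lowest. A fold of naked RNA leaves out the ribosomal proteins and long-range contacts.

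**Figure D4:**
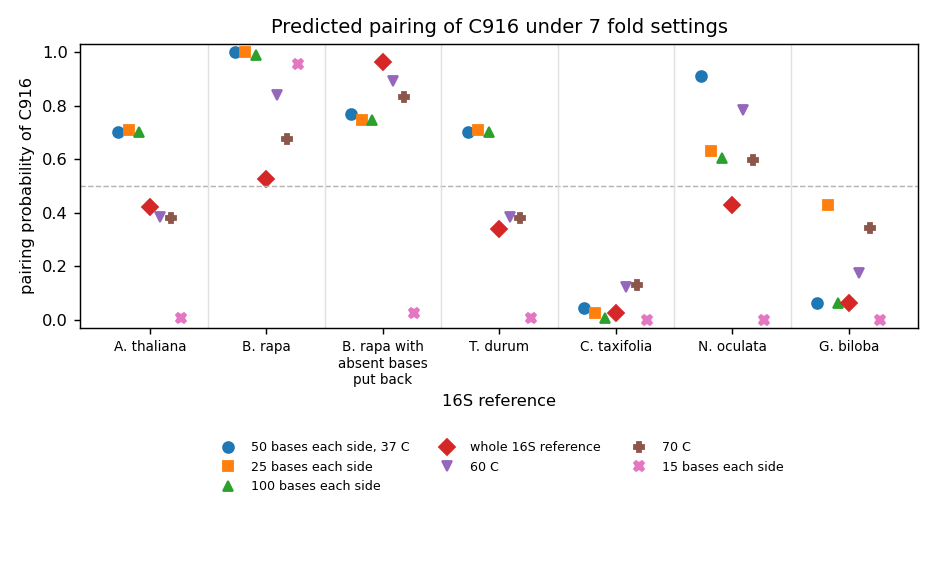
Predicted probability that C916 is base paired (y axis, 0 to 1) in each 16S reference (x axis), under 7 settings of the folded window and temperature marked by symbol; settings with no temperature given were at 37 C and those with no window given used 50 bases on each side. *B. rapa* as deposited is above 0.5 (dashed line) in all 7 settings, and with 15 bases on each side every other sequence, the restored *B. rapa* included, is at 0.026 or less.

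The counterpart of C916 in mitochondrial 18S rRNA is C960, another listed site. The alignment of each chloroplast 16S with the mitochondrial 18S of the same species put C916 over C960 in all 5 species whose mitochondrial reference was used. The mitochondrial reference of *N. oculata*, whose C960 entry is the letter A, was not used here. C916 had 81% in *A. thaliana*, against 28% at C960. In *B. rapa* the order was the other way, with 31% at C916, against 73% at C960, and in *C. taxifolia* C916 had 43%, against 70%. *T. durum* had 76% at C916, against 75% at C960, and *G. biloba* had 84%, against 78%. The species with the lowest level was thus *B. rapa* at the chloroplast position and *A. thaliana* at the mitochondrial one.

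The mitochondrial windows are shown because they bear on which rRNA a read came from, with C960 in capitals.
A. thaliana mitochondrial: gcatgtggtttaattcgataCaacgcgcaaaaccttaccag
B. rapa mitochondrial: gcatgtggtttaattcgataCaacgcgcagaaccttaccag
T. durum mitochondrial: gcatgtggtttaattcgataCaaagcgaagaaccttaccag
C. taxifolia mitochondrial: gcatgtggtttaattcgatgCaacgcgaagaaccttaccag
G. biloba mitochondrial: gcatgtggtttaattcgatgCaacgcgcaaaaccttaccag

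The base directly before the site separated the references in more than one way. It was G before C916 and A before C960 in *A. thaliana*, *B. rapa* and *T. durum*. In *C. taxifolia* it was A before C916 and G before C960, the reverse. In *G. biloba* it was G before both.

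In *T. durum* this base was the only difference between the chloroplast and mitochondrial references over 217 bases, of which 160 were before it and 56 began at C916. Its mitochondrial window differed from the *A. thaliana* chloroplast window at 1 of 60 flanking bases and from the *A. thaliana* mitochondrial window at 5. The *C. taxifolia* mitochondrial window was also nearer to the chloroplast one of *A. thaliana*, with 4 differences, than to the mitochondrial one, with 6. The order was the other way in *B. rapa*, with 5 and 1, and in *G. biloba*, with 6 and 2. Identity between the 2 references over 150 bases on each side was 94% in *T. durum*, against 72.7% in *A. thaliana* and in *B. rapa*, 74.3% in *G. biloba* and 75.7% in *C. taxifolia*. The levels of 76% and 75% in *T. durum* therefore come from positions that 1 base tells apart over this stretch, and whether reads of the one were counted at the other was not tested.

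The longest run through C916 that occurred in the mitochondrial 18S of the same species was 56 bases in *T. durum*, 21 in *C. taxifolia*, 16 in *G. biloba*, and 6 in both *A. thaliana* and *B. rapa*. After every cytosine was turned into thymine, as in a bisulfite reference, the run was 8 bases in *A. thaliana* and *B. rapa*, and 69 in *G. biloba*, where T906C had ended it before conversion. It did not change in *T. durum* and *C. taxifolia*. Runs shared with nuclear 18S rRNA were at most 8 bases after conversion in all 6 species. Whether shared runs bear on the levels was not tested.

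Nuclear 18S rRNA had a cytosine over C916 in all 6 species in the multiple alignment, at its own position 1196 in *A. thaliana*, and no site was listed there. The base before it was T in *A. thaliana* and C in the other 5 references. Flank identity to the own chloroplast was 65% to 70% over 10 bases on each side, and the pairwise alignment placed no base of nuclear 18S over C916.

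The letters next to C916 were also looked for elsewhere. The 5 bases centred on the site, tgcaa in *A. thaliana*, occurred 1 to 5 more times in the 16S of each species, always at cytosines that are not listed. The 7 bases centred on it, atgcaaa in *A. thaliana*, occurred nowhere else in the 16S or 23S of any species, which describes these references and names no recognition sequence.

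Bacterial 16S rRNA carries another m5C, made in *E. coli* by RsmF near the decoding site, at the last base of the sequence GCCCGTC. This sequence occurred once in each of the 6 chloroplast references, and its last cytosine, position 1356 in *A. thaliana*, was a cytosine in all of them. No site was listed there in any species. The table gives no percentage for positions that were not listed, so an unmethylated cytosine cannot be told apart from one with too few reads.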

How the data were processed

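RBS-seq libraries from total RNA were trimmed and aligned by the authors with CLC Genomics Workbench to rRNA references in which cytosines had been converted in silico. Their control for conversion was a spike-in transcript lacking m5C. The deposited percentages, cytosines over cytosines plus thymines, were used as they stand, with 20% as the authors' level for a site. The authors also required at least 5 reads at a site. Depth per site and replicate values were not given in the sources used here, so no interval, further coverage minimum or test was possible. The series had 8 bisulfite libraries and 5 RNA-seq libraries. The site, comparison sites and settings were chosen with earlier results of these data known. Sites compared by name were those at 20% or more in every species and mitochondrial C960. The 16S references were aligned with MAFFT 7.526 (local pairs, 100 iterations), or in pairs with Biopython 1.88 (match 2, mismatch -3, gap -5 and -2). A gap counted as a difference. Folds used ViennaRNA 2.7.2 with 50 bases on each side and 37 C, and *B. rapa* was also folded with its absent bases put back from *A. thaliana*. Scripts were tested on simulated data.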

Additional observations from a re-analysis of the deposited data

Results flagged for a closer look

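The identity of the *B. rapa* flanks to *A. thaliana* at C916, 65% over 10 bases on each side, lay far below the values of the other 4 species, which were 90% to 100%. It was marked by its gap to the nearest value relative to the whole range. Of 4 measures examined over species, it was the only one marked. The rule marks about 1 in 20 groups of replicates by chance, but species are not replicates, so that rate does not apply here. The 65% counts 6 absent bases and A926C. The absent bases had been named for description when the site was chosen, so the mark adds no support.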

How the results depend on the processing

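No read depth limits could be given, no coverage minimum could be varied and no replicate could be left out, since only the *A. thaliana* mean was used. No paired analysis was possible because no result comes from a test. Of 101 alternatives for 47 results, 94 were planned, though with earlier results of these data known, and 7 were added after the present results were seen. A change of more than 1.5 times, or of side of 0.5 for pairing, counted as moved: 66 stayed the same, 32 moved and 3 reversed. The range of C916 was 44 points without *B. rapa*, and 11 points without *B. rapa* and *C. taxifolia*. Against C1940 alone *A. thaliana* differed by 11 points, *N. oculata* by 6 and *G. biloba* by -1. Against C1977 alone these were -1, -1 and -6, which reversed *A. thaliana* and *N. oculata*. Without C1586 the difference from the other shared sites was -0.5 in *G. biloba*, where their mean gave 0.2, 3.5 in *N. oculata* and 5 in *A. thaliana*. Flank identity minus the 16S median was -6 points, -2 with 30 bases, -0.429 with gap positions left out and 1.25 without *B. rapa*. The pairing probability in *A. thaliana* was 0.423 on the whole reference, 0.384 at 60 C, 0.381 at 70 C and 0.00496 with 15 bases. *T. durum* had 0.338, 0.384, 0.381 and 0.00496 in the same order, and *N. oculata* 0.43 on the whole reference and 0.000535 with 15 bases. The *G. biloba* run shared with mitochondrial 18S was 16 bases as deposited and 69 converted. Pairwise alignment found 0 nuclear counterparts. In 9 cases conversion raised the number of other copies of the letters around C916. The cause of these changes was not tested beyond what each setting itself alters.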
